A study of Mus musculus with 18 samples.

Results

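The collagen prolyl and lysyl hydroxylases were followed across 18 RNA-seq libraries of mouse tail tendon fibroblasts (TFs). The 10 genes, chosen by name from the 55491 rows of the count table, were the prolyl 4-hydroxylase alpha subunits P4ha1, P4ha2 and P4ha3, the beta subunit P4hb, the lysyl hydroxylases Plod1, Plod2 and Plod3, and the prolyl 3-hydroxylases P3h1, P3h2 and P3h3. All 10 passed the filter on low counts. These enzymes act on procollagen chains in the endoplasmic reticulum and use molecular oxygen, 2-oxoglutarate, iron and ascorbate. In prolyl 4-hydroxylase the alpha subunits do this, and P4hb is not a hydroxylase itself. Prolyl 4-hydroxylation stabilises the collagen triple helix, lysyl hydroxylation prepares sites for glycosylation and cross-linking, and prolyl 3-hydroxylation occurs at a small number of prolines. Tendon fibroblasts deposit a matrix of mostly type I collagen, so this enzyme family is heavily used in the tissue.

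TFs came from the tails of mice of both sexes, aged 4 to 6 months and of a mixed C57BL6J/129S1 background, and were cultured for 4 days in 20% or 1% O2, with 3 libraries in each of 6 groups. Ctrl TFs were labelled wild-type and, by the study's methods, came from Cre-negative mice of crosses that carry the floxed Hif1a allele. cKO TFs carried Hif1a fl/fl and ScxCre, in which Cre is driven by Scleraxis and deletes Hif1a, the gene of the oxygen-regulated HIF-1α subunit, in the tendon lineage. Ctrl gesicles TFs were labelled as wild-type cells treated with Cre gesicles, vesicles that carry Cre. Cre can delete Hif1a only where the allele is floxed, and the label wild-type does not settle whether these Ctrl cells carried it, which gene-level counts cannot check. All cells were passaged and grown in serum-containing DMEM/F12, and the libraries were bulk poly-A RNA, in which fewer cells of a type and less RNA per cell cannot be told apart.

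Total counts ran from 6857558 in cKO 1% O2 replicate 1 to 51806453. All 11 tendon fibroblast markers had a median above 1 CPM (counts scaled to library size, with TMM factors), with summed levels of 5647 to 15169 CPM per library, whereas the endothelial, keratinocyte and adipocyte lists each summed to under 1 CPM. The skeletal muscle list summed to 22.0 to 41.8 CPM in Ctrl and 9.32 to 15.02 CPM in cKO TFs in 20% O2, nearly all of it Acta1, with Ckm at 0 in all 18 libraries, and its part in the genotype values was not tested. In 20% O2 the tendon fibroblast list was also apart between genotypes, at 11188 to 13214 CPM in Ctrl and 5647 to 10299 CPM in cKO TFs, as was the Schwann cell list, at 0.517 to 0.856 against 1.45 to 2.37 CPM. Col1a1 alone, a large part of the tendon fibroblast sum, averaged 6333 CPM in Ctrl and 2867 CPM in cKO TFs there. Scx and Mkx, with medians of 14.9 and 42.8 CPM over the 18 libraries, add little to that sum. The part of these lists was not tested either. The macrophage list summed to at most 4.07 CPM, and the chondrocyte list to at most 51.2 CPM, mostly Sox9, with Acan at 0 in 17 of 18 libraries. Hif1a was not lower in cKO than in Ctrl TFs, at 377 ± 72.8 against 348 ± 19.6 CPM in 20% O2 (SD, n = 3), nor in gesicle-treated TFs there, at 362 ± 30.96 CPM. The paper reported reduced Hif1a in cKO tail TFs by qPCR, a different assay at a later time in culture. Gene-level counts do not separate transcripts that lack the floxed exon, so they do not check the deletion, and Cre counts were between 0 and 5 in the 6 cKO libraries and 0 in all 12 others. Of the 6 Ctrl and the 6 cKO libraries, 2 and 4 respectively were male by their Y-linked and Xist counts, so sex differed in part with genotype, and its part in the genotype values was examined only by a fit with sex as a covariate.

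The enzymes differed widely in level. Per kilobase of exon, P4hb, the beta subunit that is also protein disulfide isomerase and serves many other proteins, was the highest in every group, at 601 ± 39.9 CPM per kb in Ctrl TFs in 20% O2 (SD, n = 3). P4ha1, the main catalytic alpha subunit in most cells, came next at 58.8 ± 6.24 and Plod3, which has glycosyltransferase as well as lysyl hydroxylase activity, followed at 41.3 ± 4.56 CPM per kb. The libraries of these 3 genes did not overlap with each other in that group. Plod2, P4ha2, P3h1, P3h3 and Plod1 lay between 21 and 29.6 CPM per kb, and each overlapped with its neighbour in this order. P4ha3 stood apart below them at 12 ± 2.71 and P3h2 was lowest at 1.48 ± 0.256 CPM per kb. P4hb, P4ha1, Plod3, P4ha3 and P3h2 held the same places in all 6 groups, and the order of the other 5 varied.

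**Figure D1:**
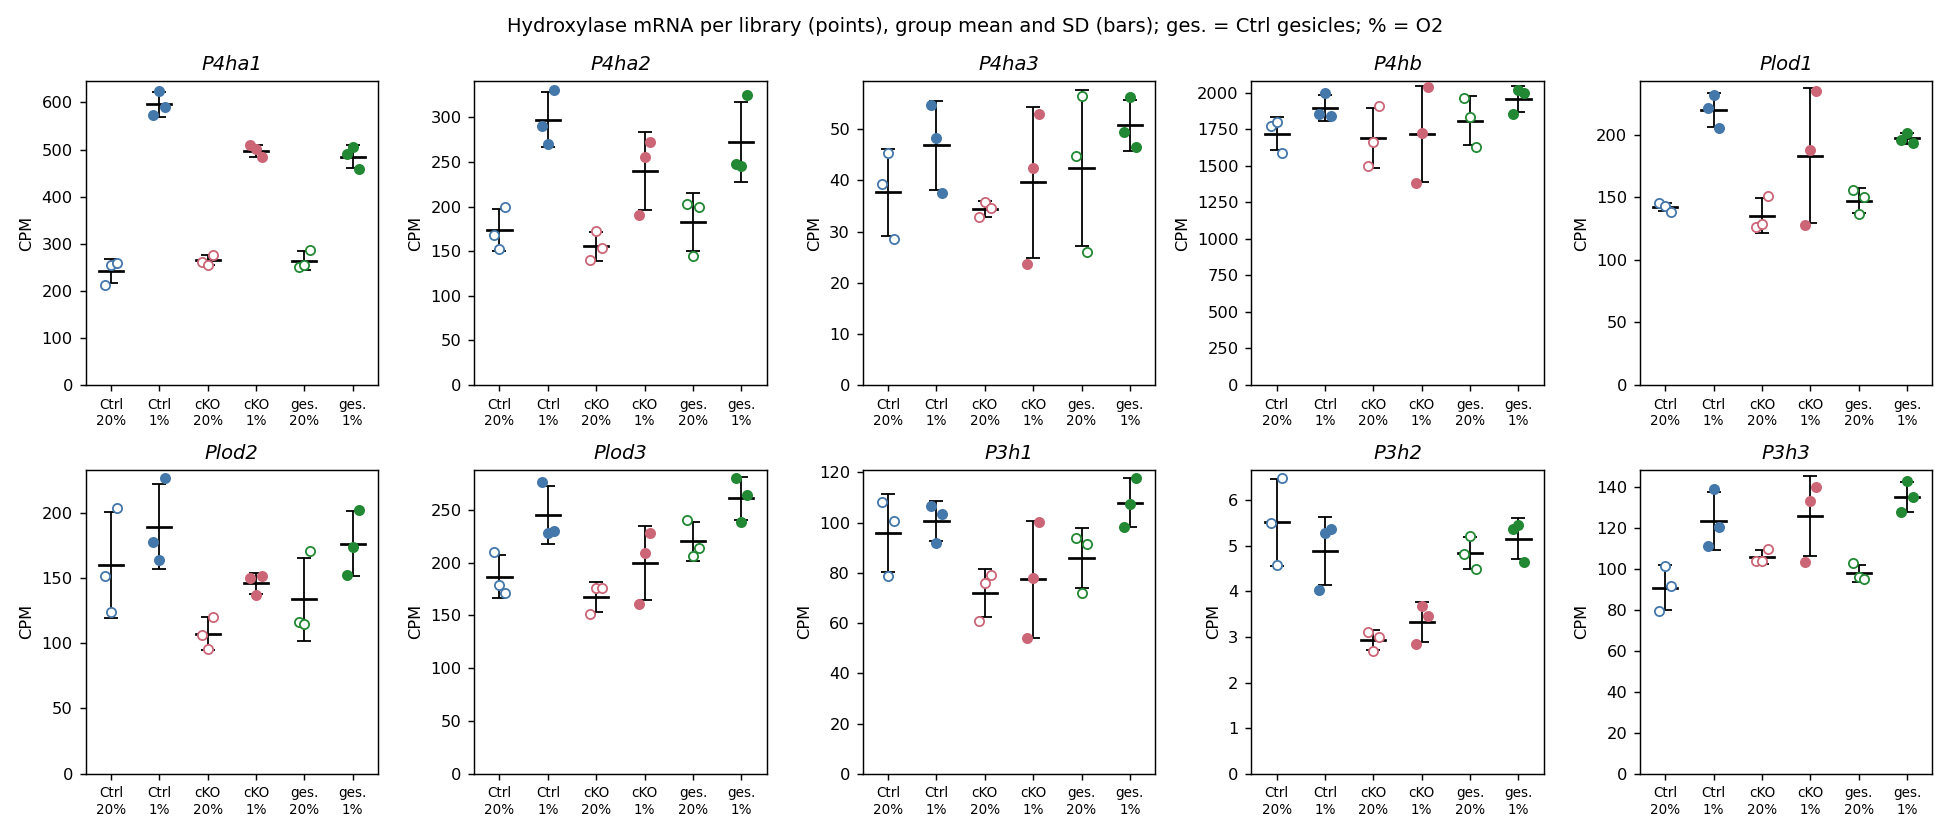
Level of each hydroxylase in CPM (vertical axis, linear, starting at 0) in the 3 libraries of each of the 6 groups, with open points for 20% O2, filled points for 1% O2, and lines for the mean and SD. The 1% O2 points of P4ha1 sit at 459 to 625 CPM, all above the 20% O2 points at 212 to 286 CPM.

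Comparing 1% with 20% O2 asked how the hydroxylases responded to hypoxia in Ctrl, cKO and gesicle-treated TFs. P4ha1 rose in all 3 arms. In Ctrl TFs its libraries read 212, 255 and 259 CPM in 20% O2 and 574, 625 and 590 CPM in 1% O2. The 2 groups did not overlap, and the rise was 2.47-fold (log2 fold change 1.31, SE 0.11, adjusted p = 9.16e-05, edgeR quasi-likelihood test with Benjamini-Hochberg adjustment), which ranked 7 by p among 15850 genes. In cKO TFs P4ha1 read 262, 255 and 277 CPM in 20% O2 and 509, 501 and 484 CPM in 1% O2, a 1.89-fold rise (log2 fold change 0.92, SE 0.11, adjusted p = 0.00134, edgeR). In gesicle-treated TFs it read 250, 256 and 286 against 490, 506 and 459 CPM, a 1.84-fold rise (log2 fold change 0.88, SE 0.10, adjusted p = 0.000102, edgeR). The hypoxic libraries were above every normoxic library in each arm. For 3 against 3 libraries without overlap, the 2-sided exact permutation p is 0.1. The share of all genes without overlap was not counted for any comparison, so absence of overlap is a description throughout.

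P4ha2, an alpha subunit with a substrate preference different from that of P4ha1, rose in Ctrl TFs. Its Ctrl libraries read 169, 153 and 200 CPM in 20% O2 and 291, 270 and 331 CPM in 1% O2, a 1.72-fold rise with no overlap (log2 fold change 0.78, SE 0.16, adjusted p = 0.0235, edgeR). This call was lost without Ctrl 20% O2 replicate 1 (adjusted p = 0.121, edgeR), Ctrl 20% O2 replicate 2 (0.116), Ctrl 1% O2 replicate 1 (0.0733) or Ctrl 1% O2 replicate 3 (0.117), with log2 fold changes of 0.69 to 0.80. In cKO TFs P4ha2 read 140, 172 and 154 CPM in 20% O2 and 190, 256 and 273 CPM in 1% O2. These groups did not overlap either, but the 1.55-fold difference missed the threshold (adjusted p = 0.0578, edgeR) and passed it in DESeq2 (adjusted p = 0.00587). In gesicle-treated TFs the libraries read 203, 145 and 199 against 248, 246 and 325 CPM. That difference was 1.495-fold, just under the fold threshold (log2 fold change 0.58, adjusted p = 0.0772, edgeR). The 1% O2 libraries were thus the higher ones in every arm. In cKO TFs edgeR called P4ha2 with low counts unfiltered (adjusted p = 0.0424), with the replicate number as a block within each arm (0.0287, chosen after seeing the data), without cKO 20% O2 replicate 2 (0.0222) and without cKO 1% O2 replicate 1 (0.0338). The response of P4ha2 was not shown to differ between arms (interaction log2 fold change -0.15 for cKO and -0.20 for gesicles, adjusted p = 1.00 for each, edgeR).

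P4ha3, the alpha subunit with the most restricted expression, and P4hb did not pass the test in any arm. P4ha3 ranged from 28.5 to 45.3 CPM in Ctrl TFs in 20% O2 and from 37.6 to 54.7 CPM in 1% O2, which overlap. Within each same-numbered pair of Ctrl libraries P4ha3 was higher in 1% O2, which the main fit does not use. The log2 fold changes of P4ha3 were 0.32, 0.23 and 0.26 in Ctrl, cKO and gesicle-treated TFs. P4hb read 1774, 1796 and 1588 CPM in Ctrl TFs in 20% O2 and 1852, 1995 and 1840 CPM in 1% O2. Its groups did not overlap there, yet the difference was 1.11-fold (adjusted p = 0.696, edgeR), and its log2 fold changes were 0.03 in cKO and 0.11 in gesicle-treated TFs.

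The promoters of P4ha1 and P4ha2, the members called in hypoxia, and of P4hb, which was not called, are shown to compare the letters near their starts. HIF binds sites with the core ACGTG or GCGTG, and both were searched on both strands, so that CACGT and CACGC mark the opposite strand and a match of one may overlap a match of another. RefSeq promoter windows (GRCm38.p6) were found for 8 of the 10 genes, and none for Plod2 and P3h2. Capitals mark the matches in the bases before the RefSeq start, read 5′ to 3′ on the strand of the gene. The stretches are chr10:59323126-59323295 (plus strand) for P4ha1, chr11:54100804-54100923 (plus strand) for P4ha2 and chr11:120573254-120573463 (minus strand) for P4hb, and none of their bases lies in an exon of the GENCODE annotation. GENCODE starts P4ha2 further upstream, at 54100095, so its stretch lies in an intron of that gene model and precedes only the RefSeq start.
P4ha1: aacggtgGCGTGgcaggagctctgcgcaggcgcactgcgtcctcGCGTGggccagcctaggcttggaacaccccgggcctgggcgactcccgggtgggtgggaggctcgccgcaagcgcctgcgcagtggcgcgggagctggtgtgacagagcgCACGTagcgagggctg
P4ha2: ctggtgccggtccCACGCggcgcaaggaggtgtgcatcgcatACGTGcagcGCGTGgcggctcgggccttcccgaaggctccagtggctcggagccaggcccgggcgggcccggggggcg
P4hb: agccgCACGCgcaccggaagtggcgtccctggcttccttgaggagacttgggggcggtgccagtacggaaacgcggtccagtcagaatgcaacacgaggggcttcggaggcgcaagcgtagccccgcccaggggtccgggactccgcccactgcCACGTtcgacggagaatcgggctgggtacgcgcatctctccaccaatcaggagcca
P4ha1 and P4ha2 each had 3 matches in the 250 bases before the start, Plod3 had 4, P4hb had 2 and Plod1 had 1. Each of the 2 P3h1 windows had 2, and P4ha3 and P3h3 had none. At least 1 match occurred in 38.6% of all 32851 promoter windows and 3 or more in 6.58%. Plod3, with the most matches of the family, was not called by edgeR in any comparison. Whether HIF binds at any of these matches, or whether matches go with calls, was not tested.

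No lysyl hydroxylase was called in the edgeR fits of 12 libraries for Ctrl and cKO TFs and of 18 for gesicle-treated TFs, although each had a positive oxygen value in every arm. Plod1, which hydroxylates lysines in the helical part of collagen, read 145, 143 and 139 CPM in Ctrl TFs in 20% O2 and 222, 232 and 206 CPM in 1% O2. The groups did not overlap, and the 1.55-fold difference missed the threshold (log2 fold change 0.63, SE 0.18, adjusted p = 0.0987, edgeR) but passed it in DESeq2 (adjusted p = 0.0315) and in edgeR fits of all 18 libraries (0.0372) and of the Ctrl groups alone (0.0130). In cKO TFs in 1% O2 Plod1 spread from 128 to 235 CPM, with replicate 1, the shallowest library, at the low end. Without that library Plod1 passed in cKO TFs (log2 fold change 0.67, adjusted p = 0.0384, edgeR), and the members called there went from 1 to 3. The role of its low depth was not tested. In gesicle-treated TFs Plod1 read 156, 137 and 150 against 196, 202 and 193 CPM, with no overlap (1.34-fold, adjusted p = 0.165, edgeR).

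Plod2, which acts on the telopeptides where cross-links form, read 151, 124 and 204 CPM in Ctrl TFs in 20% O2 and 178, 164 and 226 CPM in 1% O2. These groups overlapped (1.19-fold, adjusted p = 0.539, edgeR). Within each same-numbered pair of Ctrl libraries the 1% O2 value was the higher, which that fit does not use. In cKO TFs the groups did not overlap, at 106, 95.5 and 120 against 150, 137 and 151 CPM, yet the 1.37-fold difference missed the threshold (adjusted p = 0.198, edgeR). In gesicle-treated TFs the groups overlapped again (1.32-fold, adjusted p = 0.2997, edgeR). Plod3 was 1.32-fold higher in Ctrl TFs in 1% O2 (adjusted p = 0.208, edgeR), with libraries of 171 to 210 CPM against 228 to 277 CPM. Its libraries overlapped in cKO TFs (1.198-fold) and in gesicle-treated TFs (1.185-fold). A stretch of 529 of its exon bases overlaps Znhit1 on the other strand, which had 348 to 1598 counts, and the sources used here do not say that counting used strand.

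Of the prolyl 3-hydroxylases, P3h3 had the largest oxygen value in each arm. It read 79.5, 102 and 91.5 CPM in Ctrl TFs in 20% O2 and 111, 139 and 121 CPM in 1% O2, with no overlap (1.37-fold, adjusted p = 0.139, edgeR), and in gesicle-treated TFs it was 1.38-fold higher, again with no overlap (adjusted p = 0.0531, edgeR). In cKO TFs it overlapped (log2 fold change 0.26). P3h1, which works in a complex with Crtap and cyclophilin B on fibrillar collagens, was at 95.9 ± 15.4 against 101 ± 7.84 CPM in Ctrl TFs (SD, n = 3; log2 fold change 0.08). Its log2 fold change was 0.12 in cKO TFs and 0.33 in gesicle-treated TFs, where 94.0, 72.0 and 91.4 CPM stood against 98.4, 107 and 118 CPM without overlap (adjusted p = 0.387, edgeR). P3h2, an enzyme active on type IV collagen, was at 5.52 ± 0.951 against 4.89 ± 0.746 CPM, the one member with a negative oxygen value in any arm (log2 fold change -0.17, adjusted p = 0.754, edgeR). Its values were 0.21 in cKO and 0.09 in gesicle-treated TFs. Its exons share 28.4% of their bases with the antisense Gm4524, which had at most 15 counts in a library.

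Across the family, 2 of 10 members were called higher in Ctrl TFs, against 1.47% of all genes tested, and 0 were called lower, against 0.41%. The count was 1 of 10 in cKO TFs (background 1.4% higher and 0.7% lower) and 1 of 10 in gesicle-treated TFs (background 1.64% higher and 0.767% lower), P4ha1 both times. The median log2 fold change of the members was 0.36, 0.26 and 0.36 in the 3 arms, where all genes had medians of 0.00, -0.03 and -0.02. In Ctrl TFs 9 of 10 members had a positive value, and in each of the other arms all 10 did. Same-numbered Ctrl and gesicle libraries deviated together (correlations of 0.193 to 0.462), so these arms were not taken as independent of each other.

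**Figure D2:**
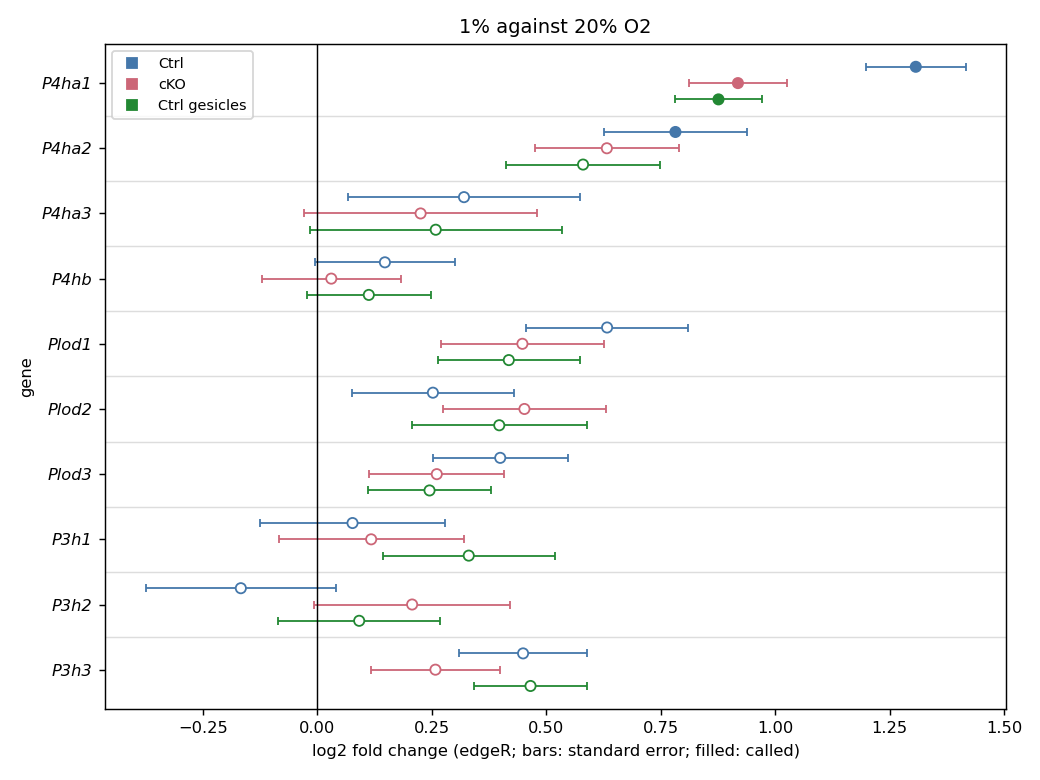
Fitted log2 fold change of each hydroxylase (horizontal axis) in 1% against 20% O2 in Ctrl, cKO and gesicle-treated TFs, with standard errors as bars and filled points for calls. P4ha1 is filled in each arm, at 1.31, 0.92 and 0.88, P4ha2 is filled in Ctrl alone, and the other points are open.

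The makeup of the 4-hydroxylase RNA was compared between oxygen levels by ratios within each library. Per unit length, the 3 alpha subunits together amounted to 0.147, 0.161 and 0.187 of the P4hb level in Ctrl TFs in 20% O2 and to 0.314, 0.302 and 0.324 in 1% O2. Since the alpha and beta subunits join in equal number in the enzyme, while free beta subunit has other roles, the ratio describes RNA only. It was 0.171 ± 0.0151 against 0.292 ± 0.0425 in cKO and 0.170 ± 0.0197 against 0.260 ± 0.00787 in gesicle-treated TFs (SD, n = 3). The groups did not overlap in any arm, at a 2-sided exact permutation p of 0.1, which is the smallest that 3 against 3 libraries allow (adjusted p = 0.233 over 21 comparisons of 3 ratios).

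P4ha1 took 59.5% ± 2.52 of the alpha subunit RNA in Ctrl TFs in 20% O2 and 69.8% ± 2.01 in 1% O2 (SD, n = 3), again without overlap (exact permutation p = 0.1). In cKO TFs its share was 64.2% ± 2.46 against 70.5% ± 5.38, also without overlap (exact permutation p = 0.1). In gesicle-treated TFs it was 60.0% ± 3.43 against 66.3% ± 3.29, where the libraries overlapped (exact permutation p = 0.2). P4ha3 made up 12.3% ± 3.07 of the alpha subunit RNA in Ctrl TFs in 20% O2 and 7.21% ± 1.42 in 1% O2. The Plod2 share of the lysyl hydroxylase RNA, 31.98% ± 6.4 against 28.8% ± 4.54 in Ctrl TFs, overlapped (exact permutation p = 0.5, unpaired). It was lower in 1% O2 within each same-numbered pair of Ctrl libraries, at 29.2% against 25.97%, 27.4% against 26.3% and 39.3% against 34.0%, which that test does not use. Plod3 held the largest share in each group, from 44.5% to 51.2% on average. Some genotype and gesicle comparisons also reached the smallest exact permutation p of 0.1 (adjusted p = 0.233). For cKO against Ctrl in 20% O2 these were the P4ha1 share (64.2% against 59.5%) and the Plod2 share (25.8% against 31.98%). For gesicles against Ctrl in 1% O2 they were alpha per beta subunit RNA (0.260 against 0.314) and the P4ha1 share (66.3% against 69.8%). The rest had larger p.

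**Figure D3:**
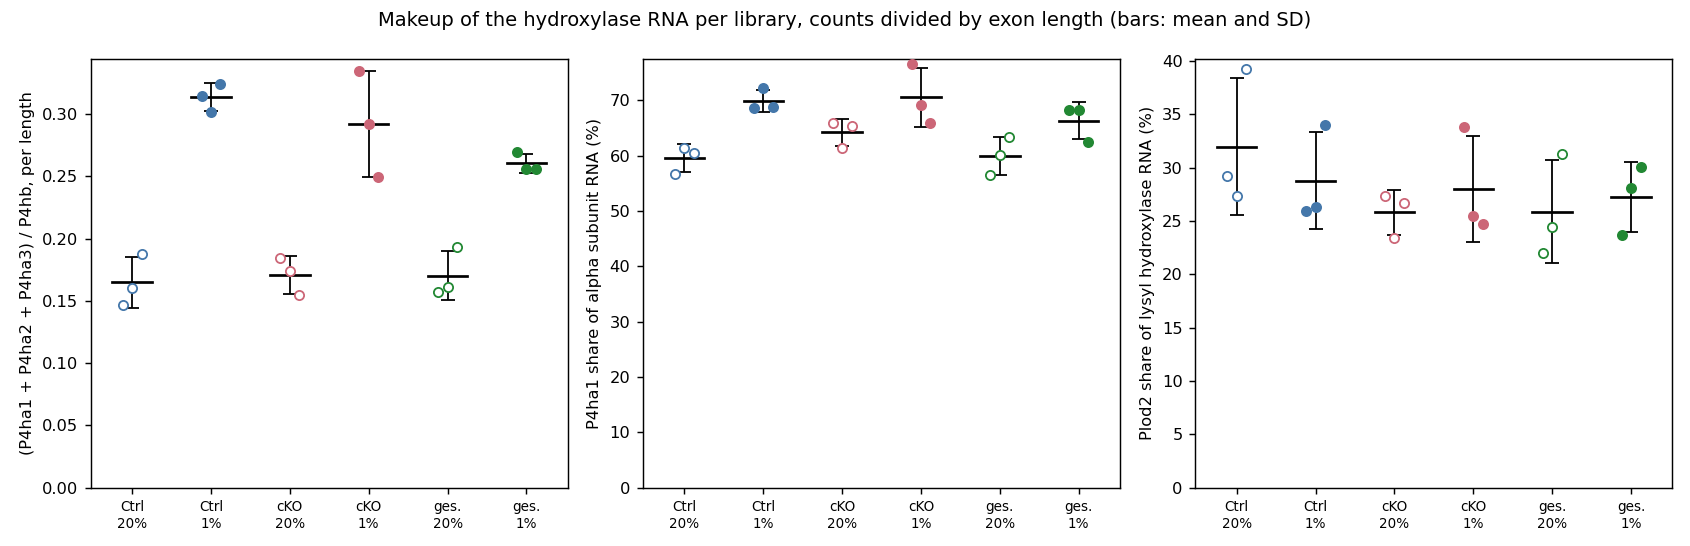
Left, summed alpha subunit RNA per P4hb RNA; middle, P4ha1 share (percent) of the alpha subunit RNA; right, Plod2 share (percent) of the lysyl hydroxylase RNA, all from counts per exon length, with the 3 libraries, mean and SD of each group. The left panel shows 1% O2 libraries at 0.25 to 0.335 above the 20% O2 libraries at 0.147 to 0.193. In the right panel the 1% and 20% O2 groups of each arm overlap.

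Comparing cKO with Ctrl TFs asked whether the levels differed with the Hif1a genotype. No member was called by edgeR in 20% O2 (0 of 10, background 0.347%). An unadjusted p under 0.05 with at least 1.5-fold was reached by 1352 of all 15850 genes and by 1 of 10 members. That member was P3h2, which read 5.49, 4.58 and 6.48 CPM in Ctrl and 3.12, 2.7 and 2.99 CPM in cKO TFs. The groups did not overlap and the cKO level was 0.53-fold of Ctrl (log2 fold change -0.91, SE 0.21, adjusted p = 0.106, edgeR). P3h2 passed in DESeq2 (adjusted p = 0.0018) and in the edgeR fit of all 18 libraries (adjusted p = 0.0343). These 2 fits called 443 of 15850 and 87 of 16174 genes. In 1% O2 P3h2 again did not overlap, at 4.03, 5.27 and 5.36 against 2.84, 3.68 and 3.45 CPM (log2 fold change -0.54, adjusted p = 0.253, edgeR).

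Plod2 was likewise lower in every cKO library than in any Ctrl library at the same oxygen. In 20% O2 the margin was small, with 120 CPM the highest in cKO and 124 CPM the lowest in Ctrl TFs. How many of all genes were apart between genotypes was not counted. Its log2 fold change in 20% O2 was -0.58 (unadjusted p = 0.00698, adjusted p = 0.202, edgeR), a 1.49-fold difference just under the fold threshold. In DESeq2 with the replicate block it had an adjusted p of 0.0032, also under 1.5-fold. In 1% O2 its log2 fold change was -0.38 (adjusted p = 0.304, edgeR). P3h3 was higher in cKO TFs in 20% O2 without overlap, at 106 ± 3.32 against 90.9 ± 11.05 CPM (SD, n = 3; log2 fold change 0.21, adjusted p = 0.467, edgeR). P4ha1 overlapped between genotypes in 20% O2 (log2 fold change 0.13) and was lower in each cKO library in 1% O2 (log2 fold change -0.26, SE 0.11, adjusted p = 0.265, edgeR). In 1% O2, 0 of 10 members were called by edgeR and by DESeq2 (background 0.0379% in edgeR). An unadjusted p under 0.05 with at least 1.5-fold was reached by 0 members and by 1549 of all 15850 genes. P4ha1 and P3h2 were under 0.05 at smaller folds (unadjusted p = 0.0296 and 0.0260, edgeR). P3h1 overlapped between genotypes, with log2 fold changes of -0.42 in 20% O2 (unadjusted p = 0.0609, adjusted p = 0.366, edgeR) and -0.38 in 1% O2 (adjusted p = 0.3495, edgeR). The other members overlapped too, with log2 fold changes in 20% and 1% O2 of -0.16 and -0.31 for P4ha2, -0.13 and -0.23 for P4ha3, -0.03 and -0.15 for P4hb, -0.08 and -0.26 for Plod1 and -0.16 and -0.30 for Plod3, and P3h3 had 0.02 in 1% O2. Values were negative for 8 of 10 members in 20% O2 and 9 of 10 in 1% O2, with medians of -0.15 and -0.28 against 0.03 and 0.00 for all genes.

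The difference between genotypes in the oxygen response was tested as an interaction. P4ha1 had the largest such value relative to its error, a response lower by 0.39 on the log2 scale in cKO TFs (log2 value -0.39, SE 0.15), at an unadjusted p of 0.0244 and an adjusted p of 1.00 in edgeR. No member was called by edgeR or DESeq2 (0 of 10, background 0%), and 0 had an unadjusted p under 0.05 with a value of at least 1.5-fold, so the 2.47-fold and 1.89-fold rises were not shown to differ. That p and fold were reached by 292 of all 15850 genes. The other interaction values were -0.15 for P4ha2, -0.09 for P4ha3, -0.12 for P4hb, -0.19 for Plod1, 0.20 for Plod2, -0.14 for Plod3, 0.04 for P3h1, 0.37 for P3h2 and -0.19 for P3h3. Without cKO 1% O2 replicate 1, the shallowest library, 8 of 10 values were positive in place of 3. P4ha2, P4ha3, P4hb, Plod1 and Plod3 then changed sign, and no member was called. The role of that library's depth was not tested.

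Gesicle-treated TFs were compared with untreated Ctrl TFs to ask whether giving Cre in culture changed the levels. No member was called by edgeR or DESeq2 in 20% O2 (0 of 10, background 0.0247%) or in 1% O2 (0 of 10, background 0%), and 0 reached an unadjusted p under 0.05 with a 1.5-fold difference in either. Of all 16174 genes, 390 in 20% and 235 in 1% O2 reached these. The largest value in 1% O2 was that of P4ha1, which read 574, 625 and 590 CPM in Ctrl and 490, 506 and 459 CPM in gesicle-treated TFs, with no overlap (log2 fold change -0.30, SE 0.09, unadjusted p = 0.00612, adjusted p = 1, edgeR). In 20% O2 its groups overlapped, with a log2 fold change of 0.13. The interaction of gesicles and oxygen gave -0.42 for P4ha1 (SE 0.13, unadjusted p = 0.0059, adjusted p = 1.00, edgeR), and 0 of 10 members were called by edgeR or DESeq2 (background 0%), with 0 at an unadjusted p under 0.05 and at least 1.5-fold (200 of all 16174 genes). This interaction and the genotype one share the Ctrl libraries. P3h2, lower in cKO TFs, had gesicle values of -0.19 in 20% and 0.08 in 1% O2. The others in 20% and 1% O2 were 0.07 and -0.13 for P4ha2, 0.17 and 0.12 for P4ha3, 0.07 and 0.04 for P4hb, 0.05 and -0.16 for Plod1, -0.26 and -0.10 for Plod2, 0.24 and 0.09 for Plod3, -0.16 and 0.10 for P3h1 and 0.11 and 0.13 for P3h3. Of these, Plod1 alone did not overlap between the groups, and in 1% O2 alone. In the gesicle interaction P4ha2 had -0.20, P4ha3 -0.05, P4hb -0.03, Plod1 -0.21, Plod2 0.15, Plod3 -0.15, P3h1 0.26, P3h2 0.27 and P3h3 0.02.

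**Figure D4:**
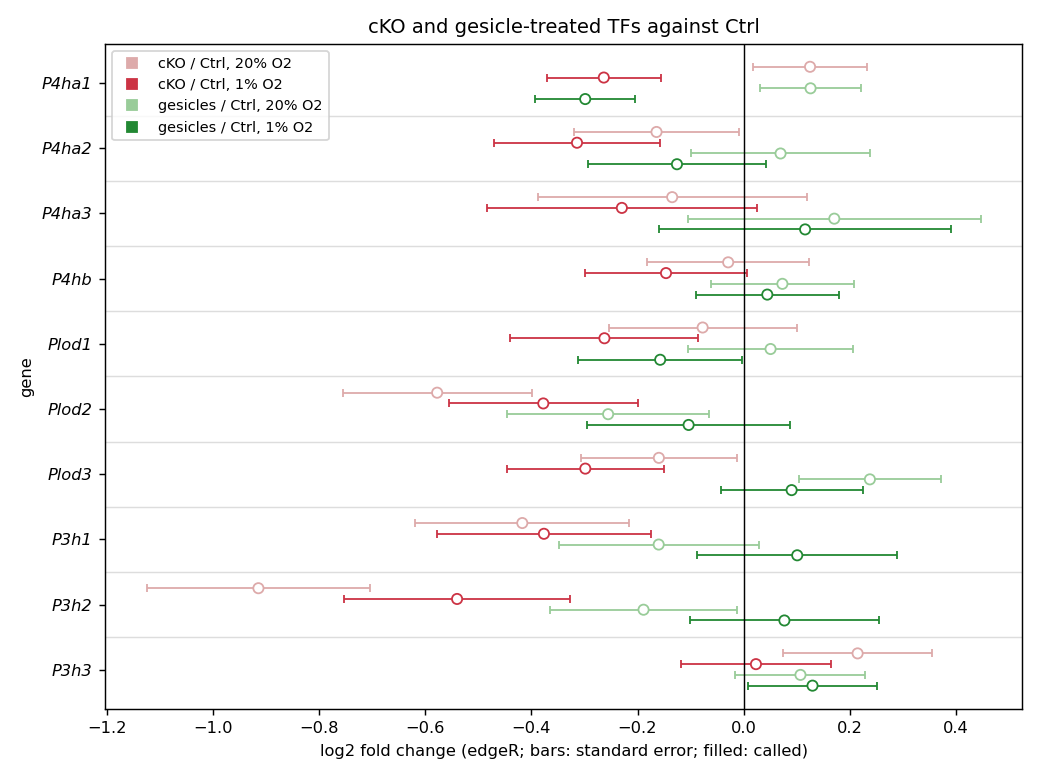
Fitted log2 fold change of each hydroxylase (horizontal axis) in cKO and in gesicle-treated TFs against Ctrl at the same oxygen, with standard errors as bars. All points are open because edgeR called none in the fits plotted, and the farthest from 0 is P3h2 in cKO TFs in 20% O2, at -0.91.

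The genes that work with the hydroxylases had smaller oxygen values than P4ha1, the highest member, in Ctrl TFs, where the median of the 10 members was 0.36. Of 12 collagen folding partners, 11 were tested, 0 were called in Ctrl TFs in 1% O2 and all 11 had positive values, with a median of 0.28 and a range from Fkbp10, a prolyl isomerase, at 0.02 to Ero1l, an oxidase that renews disulfide isomerases, at 0.40. In cKO TFs 1 of 11 was called higher (background 1.4%), Pdia3, a disulfide isomerase, at 1.57-fold (log2 fold change 0.65, SE 0.12, adjusted p = 0.0197, edgeR). The median there was 0.26, as was that of the members, with a range from Fkbp10 at -0.07 to Hspa5 at 0.70. Hspa5 had the larger fold but was not called (1.62-fold, adjusted p = 0.0638, edgeR). Of 12 genes of procollagen export and processing, 0 were called in any of the oxygen comparisons, with a Ctrl median of 0.04. The 13 substrate collagen chains had 0 calls and a negative median in Ctrl TFs (-0.32) and cKO TFs (-0.36) and a positive one in gesicle-treated TFs (0.11). Col1a1, the main chain of tendon collagen, varied widely between libraries, at 2250 to 6175 CPM in Ctrl TFs in 1% O2 and 4943 to 8258 CPM in 20% O2 (log2 fold change -0.66, SE 0.48, adjusted p = 0.549, edgeR). In cKO against Ctrl TFs, the chains had medians of -0.67 in 20% and -0.66 in 1% O2, also with 0 calls.

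Among 5 other oxygen-dependent prolyl and asparaginyl hydroxylases, 2 were called higher in each arm. These were Egln1 and Egln3, the prolyl hydroxylases that mark HIF alpha subunits for degradation, at 2.06-fold (adjusted p = 0.000627, edgeR) and 3.64-fold (adjusted p = 0.0098, edgeR) in Ctrl TFs. P4htm, a transmembrane relative of the collagen enzymes, had a log2 fold change of 0.30 that did not pass. Of 5 genes of ascorbate supply and recycling, 4 were tested and 1 was called higher in Ctrl TFs, Glrx, a glutaredoxin, at 2.07-fold (adjusted p = 0.0161, edgeR). Of 8 hypoxia controls 6 were called higher in each arm, with Ctrl medians of 2.02 against 0.36 for the collagen hydroxylases. P4ha1 at 1.31 lay between Pgk1 at 1.16 and Slc2a1 at 1.40.

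**Figure D5:**
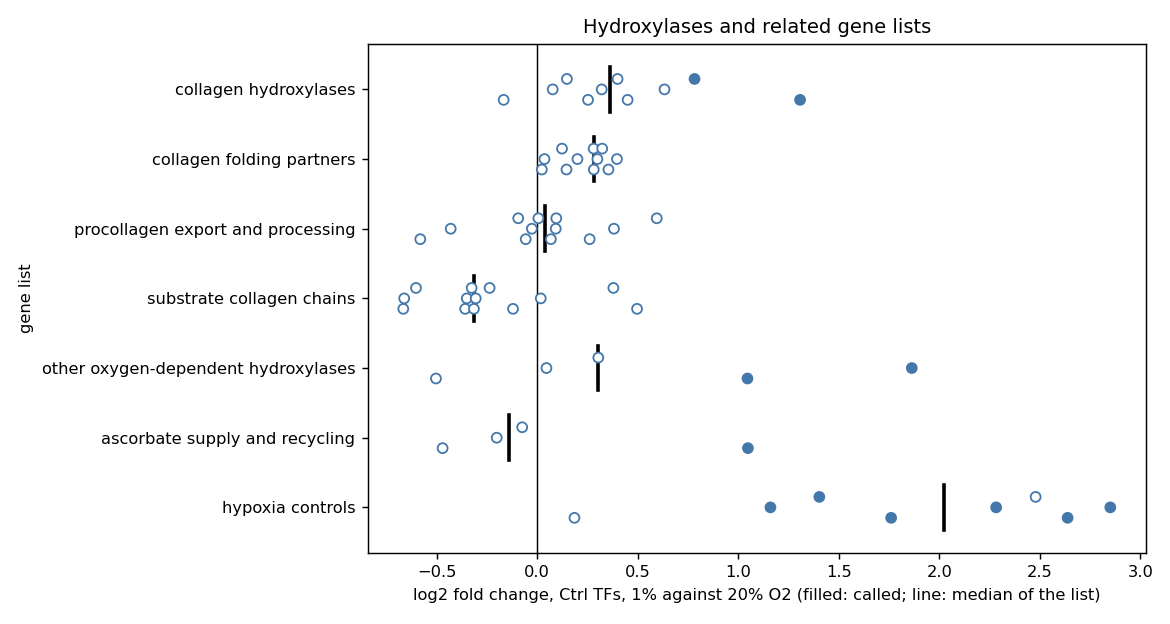
Log2 fold change in Ctrl TFs in 1% against 20% O2 (horizontal axis) of each tested gene of the collagen hydroxylases and 6 related lists, with filled points for calls and a line at the median of each list. The collagen hydroxylases have 2 filled points and a median of 0.36, the substrate collagen chains have none and a median of -0.32.

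Over the 18 libraries and 16174 genes, the genes whose log2 CPM was most like that of P4ha1 were Slc16a3 (Pearson r = 0.980), Fut11 (0.977), Pfkl (0.974), Pdk1 (0.973) and Hsph1 (0.967). Those most like Plod2 were Chfr (0.890), Kif5b (0.882), Rnf128 (0.878), Vegfa (0.875) and Plac8 (0.871). Within the family P4ha2 and Plod1 were the most alike (r = 0.865), followed by P4ha1 and P4ha2 (0.835), and P3h2 had an r of 0.03 with P4ha1. These libraries share the oxygen difference and the cultures, so the values are a description.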

How the data were processed

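Poly-A RNA was sequenced (151 base paired ends) from 18 libraries of tail TFs in 6 groups of 3. Per the methods and the labels, the authors trimmed reads (cutadapt 4.8), mapped them to GRCm38 (STAR 2.7.8a) and estimated counts with RSEM 1.3.3, and the deposited values are expected counts rounded to whole numbers, not normalized, with 4 transgene rows left out of tests here. The serum is 10% in the labels and 1% in the methods. The 10 members and all lists were chosen with earlier results of these data known.

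Counts were fitted with edgeR 4.0.16 (R 4.3.3): default expression filter, TMM scaling, 1 coefficient per group, quasi-likelihood F test. Ctrl and cKO comparisons used their 12 libraries (15850 genes), and gesicle comparisons all 18 (16174 genes). The study used DESeq2 with a paired design, and DESeq2 1.42.0 was run here as an alternative. Calls required a difference of at least 1.5-fold and a p under 0.05 after Benjamini-Hochberg adjustment, and SE is the fold change over the root of F. CPM used TMM library sizes, and levels between genes were divided by GENCODE exon length. Every member was named in every comparison, and other genes only from the lists where called or at the ends of a range, plus Col1a1, P4htm, Pgk1 and Slc2a1, chosen after their values were seen, and the 5 nearest to P4ha1 and to Plod2. Scripts were tested on simulated data.

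Same-numbered libraries deviated together for oxygen in Ctrl TFs (correlations 0.271 to 0.458) and for gesicles against Ctrl (0.193 to 0.462), so the numbers were taken to pair those samples from the data, since the labels name no mice. No source says that libraries of a group came from separate mice beyond the stated n = 3, so p-values measure the spread between these libraries. No library pair agreed within sampling noise. Alternatives were another tool, scaling, filter, sample set, sex as a covariate, a replicate block and each library left out.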

Additional observations from a re-analysis of the deposited data

How the results depend on the processing

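The P4ha1 rise kept its direction and its call under every alternative run in each arm (log2 fold change 1.22 to 1.36 in Ctrl, 0.90 to 0.95 in cKO and 0.84 to 0.94 in gesicle-treated TFs). The shallowest library held 6857558 counts, and the part of depth in the members that were not called was not tested.

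Members called in Ctrl TFs in 1% O2 were 2, and 1 to 2 with each library left out, and 3, with Plod1, in DESeq2 with and without the replicate block, in the fit of only those groups and in that of all 18 libraries. In cKO TFs the 1 called became 2 when low counts were left unfiltered, in DESeq2 with and without the replicate block, and with the replicate block within each arm (added after seeing the data), in each case with P4ha2, and 1 to 3 with each library left out. In cKO against Ctrl TFs in 20% O2, the 0 called became 1, P3h2, in DESeq2, in DESeq2 with the replicate block and in the fit of all 18 libraries. The replicate block in edgeR kept the number of members called in every comparison (2, 1 and 1 for oxygen, 0 elsewhere). For oxygen in cKO TFs the same-numbered correlations were 0.0956, 0.0921 and 0.368 (mean 0.185, against -0.0873 for other numbers) and for oxygen in gesicle-treated TFs they ran from -0.0061 to 0.216, so not every pair passed 0.1. Sex by Y-linked and Xist counts matched by number across oxygen in every arm, so a shared source of these libraries was neither shown nor set aside. For cKO against Ctrl in 20% O2 the correlations ran from -0.149 to -0.0407, and in 1% O2 from -5.2e-05 to 0.218, and sex did not match by number, so those samples share only a number.

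All genes called under DESeq2 rather than edgeR numbered 696 against 298 in Ctrl, 892 against 333 in cKO and 732 against 390 in gesicle-treated TFs for oxygen, and 443 against 55 and 302 against 6 for cKO against Ctrl in 20% and 1% O2. Fits of only the groups compared called 84 genes for cKO oxygen, 120 for gesicle oxygen and 1 and 0 for cKO against Ctrl in 20% and 1% O2. Left unfiltered, 511 genes were called for cKO oxygen and 281 and 111 for cKO against Ctrl, and the fit of all 18 libraries called 87 and 14 for the latter. For gesicles against Ctrl in 20% O2 DESeq2 called 46 genes in place of 4, and 23 were called unfiltered, 1 in a fit of those groups and 0 with sex as a covariate. For cKO against Ctrl in 1% O2, sex as a covariate gave 15 in place of 6 and the edgeR replicate block 2. DESeq2 with the replicate block called 743, 869 and 882 genes for oxygen in Ctrl, cKO and gesicle-treated TFs, 473 and 291 for cKO against Ctrl, and 62 and 3 for gesicles against Ctrl in 20% and 1% O2. With each library left out the genes called ran from 116 to 261 for oxygen in Ctrl, from 97 (without cKO 20% O2 replicate 3) to 1374 (without cKO 20% O2 replicate 2) in cKO and from 148 to 346 in gesicle-treated TFs, and from 1 to 154 and 0 to 6 for cKO against Ctrl in 20% and 1% O2. Of the interactions, with 0 genes called, DESeq2 gave 2 for genotype, 4 with the replicate block, and 1 for gesicles with the block.

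Without division by length, the difference in alpha per beta subunit RNA was 0.232, 0.190 and 0.141 for oxygen in Ctrl, cKO and gesicle-treated TFs and -0.0831 for gesicles against Ctrl in 1% O2, in place of 0.1485, 0.121, 0.0900 and -0.0532, since P4hb is the shortest of the 4 genes.

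Values that changed sign were all uncalled, and the cause was not tested. With 1 library left out at a time, the log2 values for oxygen in Ctrl TFs ran for P3h1 from -0.046 to 0.17. Those for oxygen in cKO TFs ran for P3h1 from -0.10 to 0.33, P4ha3 from -0.020 to 0.49 and P4hb from -0.099 to 0.18. Those for cKO against Ctrl in 20% O2 ran for P4ha3 from -0.31 to 0.018 and P4hb from -0.13 to 0.052. Those for cKO against Ctrl in 1% O2 ran for P3h3 from -0.051 to 0.16, P4ha3 from -0.48 to 0.036 and P4hb from -0.28 to 0.0019. Those for the genotype interaction ran for P3h1 from -0.17 to 0.27, P4ha2 from -0.26 to 0.017, P4ha3 from -0.33 to 0.18, P4hb from -0.24 to 0.042, Plod1 from -0.38 to 0.042, Plod2 from -0.014 to 0.37 and Plod3 from -0.23 to 0.019. Those for gesicles against Ctrl in 20% O2 ran for P4ha2 from -0.028 to 0.21 and P4ha3 from -0.088 to 0.43. Those for gesicles against Ctrl in 1% O2 ran for P3h2 from -0.024 to 0.16, P4ha3 from -0.010 to 0.26 and Plod2 from -0.21 to 0.059. Those for the gesicle interaction ran for P3h3 from -0.036 to 0.14, P4ha3 from -0.31 to 0.20, P4hb from -0.099 to 0.060 and Plod2 from -0.028 to 0.36. With the replicate block within each arm, P3h1 had -0.0063 in the genotype interaction.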
